A study of Rattus norvegicus with 23 samples.

Results

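Transcript levels in neural stem cells on a stiff or on a soft substrate were compared at the time labelled 12 h. The 5 libraries, out of the 23 of the series, were stiff replicates 1, 2 and 3 and soft replicates 1 and 3. They were chosen by the substrate, time and round in their sample titles. The soft 12 h group is without a replicate 2 among the libraries analysed here. The cells were wild-type neural stem cells from the hippocampus of adult female rats. All groups, the 0 h ones included, carry the same label for the medium, a mixed differentiation medium of DMEM-F12 with N2, 1 uM retinoic acid and 1% FBS (fetal bovine serum). The level from which each substrate started was read in the 6 libraries labelled 0 h, 3 on soft and 3 on stiff. How stiff each substrate was, and how the cells were handled up to 0 h, is not given in the sources used here. Nothing in the labels ties a round to its own culture or animal. The p-values thus cover the spread among these libraries alone, and that spread may be technical.

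Adult hippocampal neural stem cells divide and can give rise to neurons, astrocytes and oligodendrocytes. The rigidity of the surface they grow on is sensed through integrin adhesions and the actin cytoskeleton, and in culture softer surfaces are known to favour neurons and stiffer ones glia. Retinoic acid with serum is a common way to let such cells take several fates at once. The series sets out to find genes that depend on stiffness in these cells, and its title names eEF1A1, a translation elongation factor that brings aminoacyl-tRNA to the ribosome.

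The deposited table lists genes by Ensembl identifier without names, and 0 of its 32883 identifiers matched the reference table of gene names. Genes are therefore described by their values and their course in time. Only the 2 called genes with the largest difference in each direction are printed by identifier. The level of the elongation factor and the markers of neural stem cells, neurons, glia and other cell types were not analysed here, so the labelled cell type was not checked and no pathway is described. In bulk libraries fewer cells of a type and less RNA per cell cannot be told apart.

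Libraries were 3' tag libraries, and levels are given as CPM, the counts of a gene scaled to a common library total. The 12 h stiff libraries held 4803755, 2462360 and 2981243 counts and the 12 h soft libraries 5428086 and 6519349, so the soft libraries were the deeper ones. The 0 h libraries held 4145040 to 6482206 counts. Of 18319 genes with a count, 11857 had enough counts to be tested. A gene is called where edgeR's quasi-likelihood test gives a Benjamini-Hochberg adjusted p under 0.05 over all genes tested.

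At 12 h the stiff and soft libraries differed in 782 genes, 6.6% of those tested, and the difference lay mainly toward higher levels on stiff. On stiff 635 genes (5.36% of those tested) were higher, with a median of 1.67-fold, and 147 (1.24%) were lower, with a median of 1.34-fold. The 12 h CPM ranges of the substrates did not overlap in 633 of the 635 and 146 of the 147 genes. Over all tested genes stiff lay wholly above soft in 17% and wholly below in 18.9%. The direction of the 635 genes was the same in both rounds that have a soft and a stiff library: 635 of 635 were higher on stiff in round 1 and in round 3, with median log2 differences of 0.65 and 0.76. Of the 147 genes, 146 were lower on stiff in round 1 and 147 in round 3. These genes were chosen on those libraries, so the counts by round describe the calls and do not test them. Without soft replicate 3 the total was 336 genes, 288 of them higher, and without stiff replicate 2 it was 502. The 147 became 76 and 48 without soft replicates 1 and 3, and 75, 27 and 91 without stiff replicates 1, 2 and 3.

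The largest differences were nearly all losses on soft. Of the 635 genes, 143 were 2- to 4-fold higher and 40 over 4-fold higher on stiff. At 0 h the median level of the 40 genes was 12.4 CPM on stiff and 10.7 on soft. At 12 h it was 16.3 CPM on stiff and 2.64 on soft, and at 24 h it was 13.2 and 14.997 CPM. In 39 of the 40 both soft 12 h libraries lay below the 3 soft 0 h libraries (24.3% of all tested genes). All stiff 12 h libraries lay below the stiff 0 h libraries in 2 (16.8% of all tested genes) and above them in 1 (18.6%). In 36 of the 40 both soft 12 h libraries were below each of the 21 other libraries of the series, and 4.71% of all tested genes had that order. The 12 h libraries entered both the choice of the 40 genes and these positions. The positions therefore describe the genes and do not test a loss on soft. The soft level of many of these genes is known only roughly: 14 of the 40 had under 10 counts in each soft 12 h library. The number over 4-fold higher ran from 29 to 47 when 1 of the 12 h libraries was left out.

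Among called genes ENSRNOG00000056337 had the largest fold on the stiff side. It stood at 23.5, 19.9 and 18.7 CPM in the stiff 12 h libraries and at 0.593 and 0.785 CPM in the soft ones. These 2 soft values rest on 3 and 5 counts, and all stiff libraries lay far above them. At 0 h it was at 13.3, 10.6 and 8.21 CPM on soft and at 6.83, 22.95 and 20.8 CPM on stiff. The substrates overlapped at that time, and stiff replicate 1 was the low one. At 24 h soft was at 21.3, 27.2 and 13.1 CPM, higher than at 0 h by 0.95 on the log2 scale (SE 0.35, edgeR adjusted p = 0.0228), and the stiff libraries, at 12.4 to 22.4 CPM, overlapped it. The 12 h difference was 4.85 on the log2 scale (SE 0.65, edgeR quasi-likelihood adjusted p = 3.69e-06). From 0 h to 12 h soft fell by 3.90 (SE 0.69, adjusted p = 4.30e-05) and stiff differed from its 0 h level by 0.31 (SE 0.34, adjusted p = 0.581).

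ENSRNOG00000051483 was a scarce transcript with the same pattern. It had 8, 8 and 4 counts in the stiff 12 h libraries, or 1.71, 3.31 and 1.36 CPM, and 1 and 0 counts in the soft ones. The 2 groups did not overlap. Over summed counts stiff was 22.8-fold above soft, with a 95% exact interval of 3.64 to 944 that covers counting error only. At 0 h soft (0.588, 1.79 and 1.45 CPM) and stiff (0.813, 1.72 and 1.34 CPM) overlapped. Its edgeR adjusted p at 12 h was 0.0133, and the call was lost without soft replicate 3 (adjusted p = 0.198) or without stiff replicate 2 (0.0603).

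Large differences toward soft were few. Of the 147 genes 117 differed by less than 1.5-fold, and 6 were more than 2-fold lower on stiff. At 12 h the median level of the 6 genes was 1.27 CPM on stiff and 4.48 on soft, and the most abundant of them stood at 13.5 and 27.3 CPM. In 5 of the 6 the stiff 12 h libraries were all below the stiff 0 h libraries (16.8% of all tested genes), and in 3 the soft ones were all above the soft 0 h libraries (27.1% of all tested genes). These positions too rest on the 12 h libraries that chose the 6 genes. Their number was 28 without soft replicate 1, 3 without soft replicate 3 or stiff replicate 1, 2 without stiff replicate 2 and 1 without stiff replicate 3. It was 22 with no filter on low counts and 11 in a fit of the 12 h libraries alone.

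ENSRNOG00000031593 was not counted in any stiff 12 h library and had 5 and 6 counts in the soft ones, or 0.988 and 0.942 CPM. Set against a floor of 3 counts over the stiff group (0.299 CPM), soft was at least 3.22-fold higher. That takes the 11 soft counts as they are; for the ratio of summed counts, 11 against 0, the lower limit of the 95% exact interval, which covers counting error only, was 2.20-fold. Here it was stiff that stood away from its start, at 0.488, 1.25 and 0.956 CPM at 0 h and 1.67, 0.751 and 1.504 CPM at 24 h. Its edgeR adjusted p at 12 h was 0.0418, and without any 1 of the 5 libraries it was 0.0973 to 0.140. Its fitted fold depends on the prior count and is no bound. At the floor it falls in the 2- to 4-fold range, and the median of the 147 genes stays at -0.42.

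ENSRNOG00000020355 was at 1.71, 0.414 and 1.36 CPM on stiff and 2.77 and 6.597 CPM on soft at 12 h. Soft replicate 3, at 42 counts, was well above soft replicate 1, at 14 counts, so the soft pair itself was spread widely. At 0 h soft was at 1.57, 1.62 and 2.42 CPM and stiff at 0.325, 1.41 and 1.91 CPM. The log2 difference was -1.89 (SE 0.60, edgeR adjusted p = 0.0499). The call was lost without soft replicate 3 (adjusted p = 0.540) and without stiff replicate 1, 2 or 3 (0.0745, 0.194 and 0.106).

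**Figure D1:**
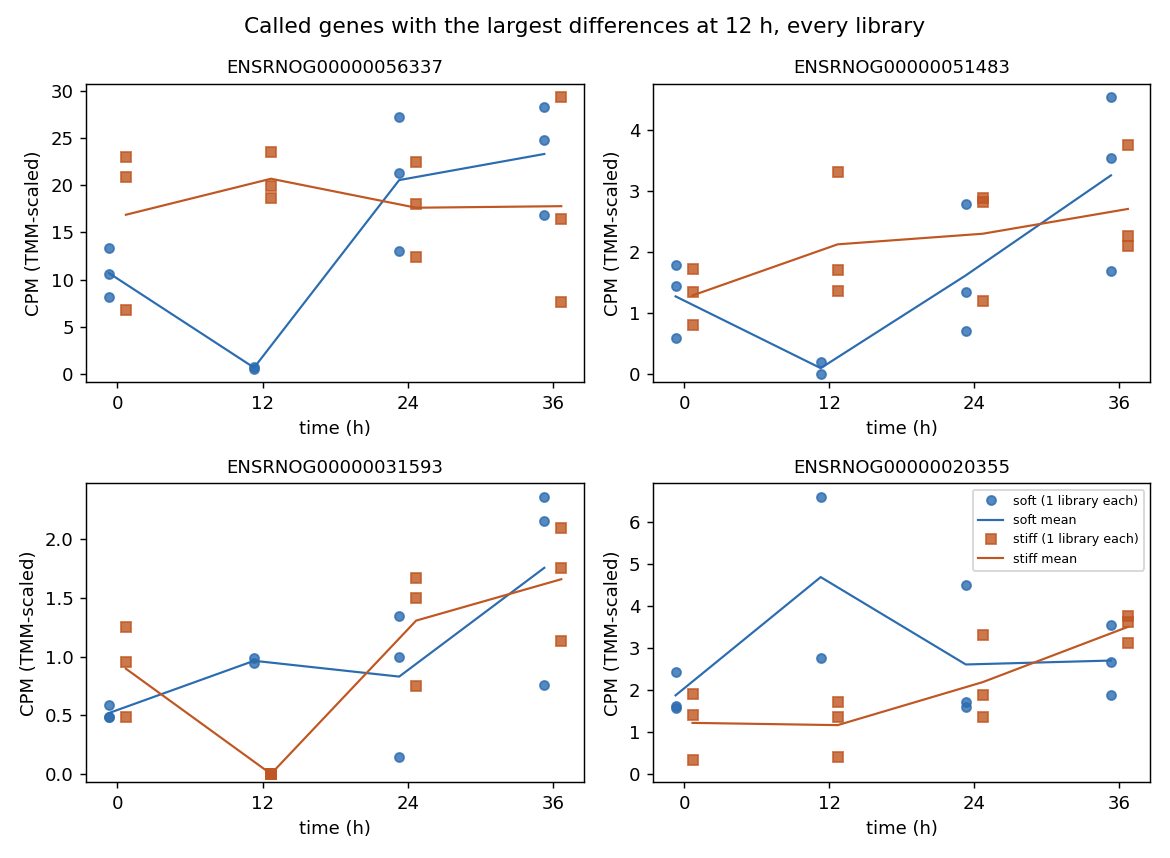
Level in CPM (vertical axis, linear) against time in h for the 4 printed identifiers. They are the 2 in each direction with the largest differences among genes called at 12 h whose ranges did not overlap. Each point is 1 library, with soft as circles and stiff as squares, and lines join group means. ENSRNOG00000056337 stood at 0.593 and 0.785 CPM on soft at 12 h and above 6 CPM in every other library, while the 2 lower panels show scarce genes whose libraries spread widely at most times.

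Calls were more frequent and smaller in size among abundant genes. The tested genes were divided into 4 groups of equal size by mean level. In the lowest group, up to 7.74 CPM, 38 genes (1.28%) were called and their median absolute log2 fold change was 1.89. In the highest group, from 72.2 CPM, 365 genes (12.3%) were called with a median of 0.49. Higher calls on stiff outnumbered lower ones in each group, by 32 to 6, 132 to 14, 198 to 35 and 273 to 92 from the lowest to the highest. The median standard error of the log2 difference was 0.55 in the lowest group and 0.11 in the highest. In simulated counts with 11857 genes, the 12 h test recovered 33.8% of 1.5-fold, 59.7% of 2-fold and 89.1% of 4-fold changes. There 200 genes were changed, up or down at random, and no gene changed otherwise over time. The real data differ in this, so these rates are only a rough guide.

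Soft was the substrate that left its 0 h level in most genes higher on stiff. From 0 h to 12 h, 490 of the 635 genes were called as fallen on soft, where 13.9% of all tested genes were, and 17 as risen, where 15.2% were. On stiff 58 were called as fallen (9.75% of all tested genes) and 78 as risen (11.8%). The median log2 change of the 635 genes was -0.67 on soft, with quartiles of -1.09 and -0.40, and 0.01 on stiff, with quartiles of -0.18 and 0.20. Over all tested genes the medians were 0.02 and 0.01. The soft 12 h libraries entered both the choice of these genes and their change on soft, as the stiff ones did for stiff. The departure was the larger on soft in 542 of the 635 genes (85.4%), in 103 of the 147 lower genes (70.1%) and in 6887 of all 11857 tested genes (58.1%). The soft 12 h mean rests on fewer libraries than the stiff one, so noise can add more to departures on soft. These counts make no allowance for that.

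**Figure D2:**
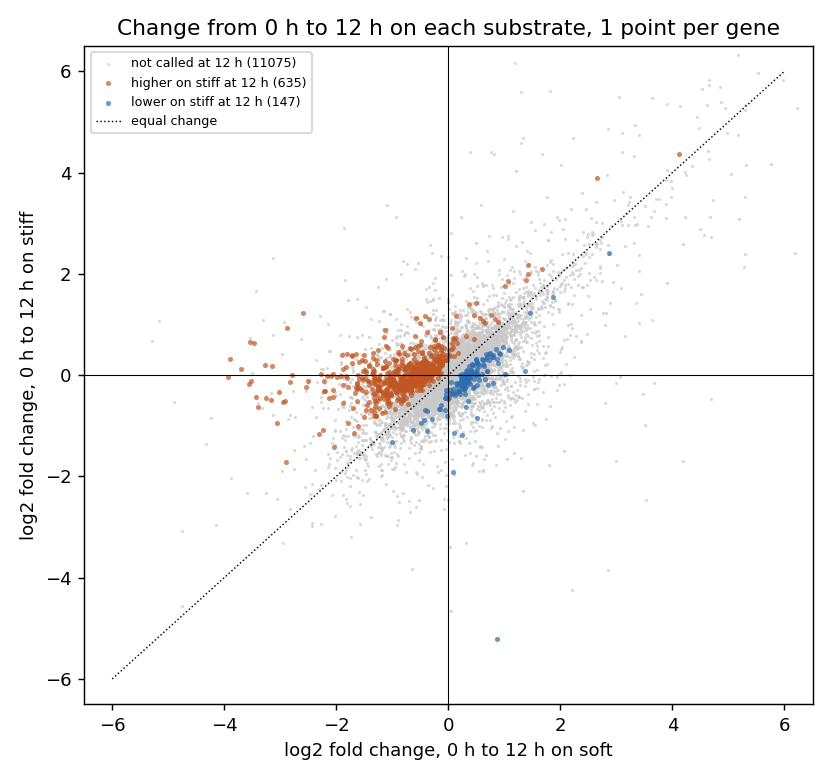
Log2 fold change from 0 h to 12 h on soft (horizontal axis) and on stiff (vertical axis), 1 point per tested gene, with the 782 genes called at 12 h coloured by direction and the dotted line marking equal change. The 635 genes higher on stiff extend to the left along the horizontal line of no change on stiff, with medians of -0.67 on soft and 0.01 on stiff; 12 genes lie outside the axes.

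Counted gene by gene, 425 of the 635 genes (66.9%) fell on soft without a call on stiff, and 54 (8.50%) rose on stiff without a call on soft. Over all tested genes these shares were 7.85% and 3.21%. A further 7 fell on soft and rose on stiff (0.059% of all tested genes), 75 were called in the same direction on both (14.5%), and 74 were called on neither (63.9%). A call on 1 substrate alone does not show that the substrates differ in their change. That difference was tested as the change of the stiffness effect from 0 h to 12 h, and it passed in 169 of the 425 genes, 16 of the 54 and 7 of the 7. The same libraries and changes chose these classes, so the counts by class describe them and are no separate support. Among all tested genes the change of the stiffness effect passed in 222 (1.87%), of which 215 (1.81%) moved toward stiff and 7 (0.059%) toward soft. The median changes of the 215 genes were -0.99 on soft and 0.06 on stiff. The 222 became 87 without soft 12 h replicate 3 and 142 without stiff 0 h replicate 1. The 425 became 196 without soft 12 h replicate 3, and the 54 became 22 without that library and 34 without stiff 12 h replicate 2.

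Among genes higher on stiff, the share called as changed on soft without a call on stiff was larger at larger differences. A fall on soft without a call on stiff was seen in 110 of 197 genes (55.8%) less than 1.5-fold higher on stiff. It was seen in 170 of 255 (66.7%) at 1.5- to 2-fold, 110 of 143 (76.9%) at 2- to 4-fold and 35 of 40 (87.5%) over 4-fold. Over all tested genes the share was 7.85%. The change of the stiffness effect passed its test in fewer genes. It passed in 21 of 197, 89 of 255, 70 of 143 and 32 of 40 genes (1.87% of all tested genes). The median change on soft ran from -0.40 through -0.66 and -1.21 to -2.69 over these ranges, and that on stiff was 0.03, -0.03, 0.02 and -0.02. The soft 12 h value enters both sides of this relation. The median level also fell over these ranges, from 121.8 through 57.5 and 20.9 to 12.4 CPM, and scarce genes have larger standard errors. A call on stiff is thus harder to reach at the larger differences, and the part of level was not tested. Among genes lower on stiff the share did not grow with the difference, and few of them differed by over 2-fold. A rise on soft without a call on stiff was seen in 51 of 117 genes (43.6%) below 1.5-fold, 9 of 24 (37.5%) at 1.5- to 2-fold and 1 of 5 at 2- to 4-fold (6.71% of all tested genes). The 1 gene beyond 4-fold, by its fitted value, fell on stiff alone.

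**Figure D3:**
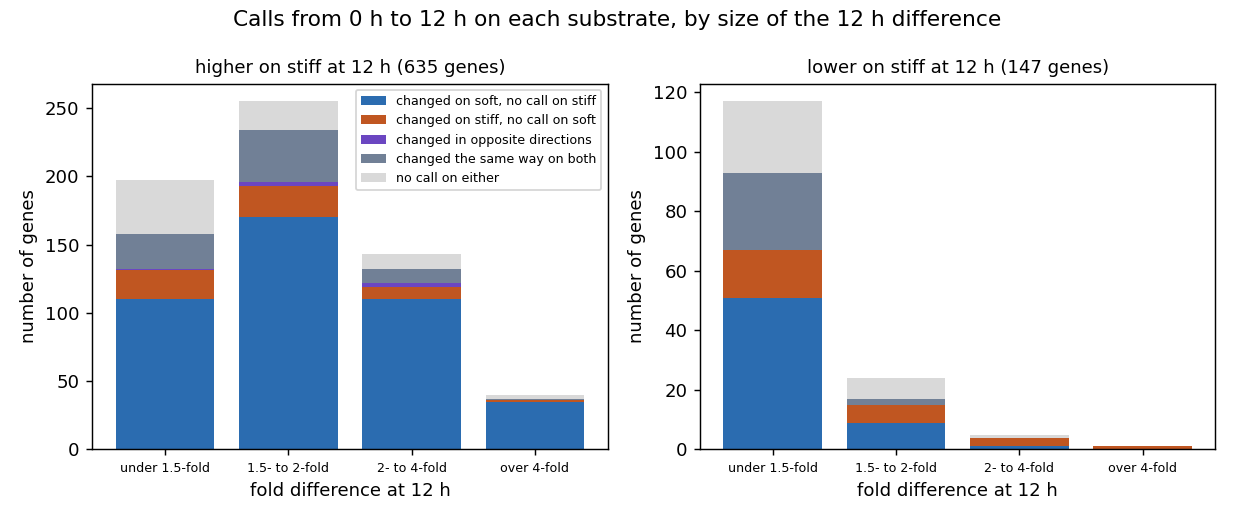
Number of genes (vertical axis) called at 12 h by the fold difference between substrates (horizontal axis), split by which substrate was called as changed from 0 h to 12 h. Among genes higher on stiff the part called on soft without a call on stiff was 110 of 197 in the smallest range and 35 of 40 in the largest.

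The 147 genes lower on stiff were more evenly divided. On soft 83 (56.5%) were called as risen from 0 h to 12 h, against 15.2% of all tested genes, and 6 (4.08%) as fallen, against 13.9%. On stiff 32 (21.8%) were called as fallen, against 9.75%, and 22 (14.97%) as risen, against 11.8%. By gene, 61 (41.5%) rose on soft without a call on stiff (6.71% of all tested genes) and 26 (17.7%) fell on stiff without a call on soft (3.73%). A further 28 (19.05%) were called in the same direction on both (14.5% of all tested genes) and 32 (21.8%) on neither (63.9%). The change of the stiffness effect passed its test in 2 of the 147, both toward soft (0.059% of all tested genes). The median changes of the 147 were 0.34 on soft and -0.07 on stiff. The 12 h libraries entered both the choice of these genes and these counts. These counts moved with single 12 h libraries. The 61 became 35 and 24 without soft replicates 1 and 3, and 29 and 12 without stiff replicates 1 and 2. The 26 became 12 without soft replicate 3, and 7 and 11 without stiff replicates 2 and 3.

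Each library was also read on its own against the mean of the 0 h libraries of its substrate. Over the 635 genes the median log2 change was -0.64 in soft 12 h replicate 1 and -0.70 in replicate 3. In the 3 stiff 12 h libraries it was -0.03, 0.09 and -0.01. The single 0 h libraries ranged from -0.15 to 0.13, and the 24 h and 36 h libraries from -0.23 to 0.15. The 3 stiff 12 h libraries lay within both ranges and the soft 12 h pair lay below them. Over the 147 genes the soft 12 h pair stood at 0.38 and 0.35 and the stiff 12 h libraries at -0.02, -0.13 and -0.07. The 635 genes took 5.24% and 5.03% of all counts in the soft 12 h libraries and 7.17% to 8.92% in each of the 21 others. The genes were chosen on the 12 h libraries, so these medians and shares describe the choice and do not test it.

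**Figure D4:**
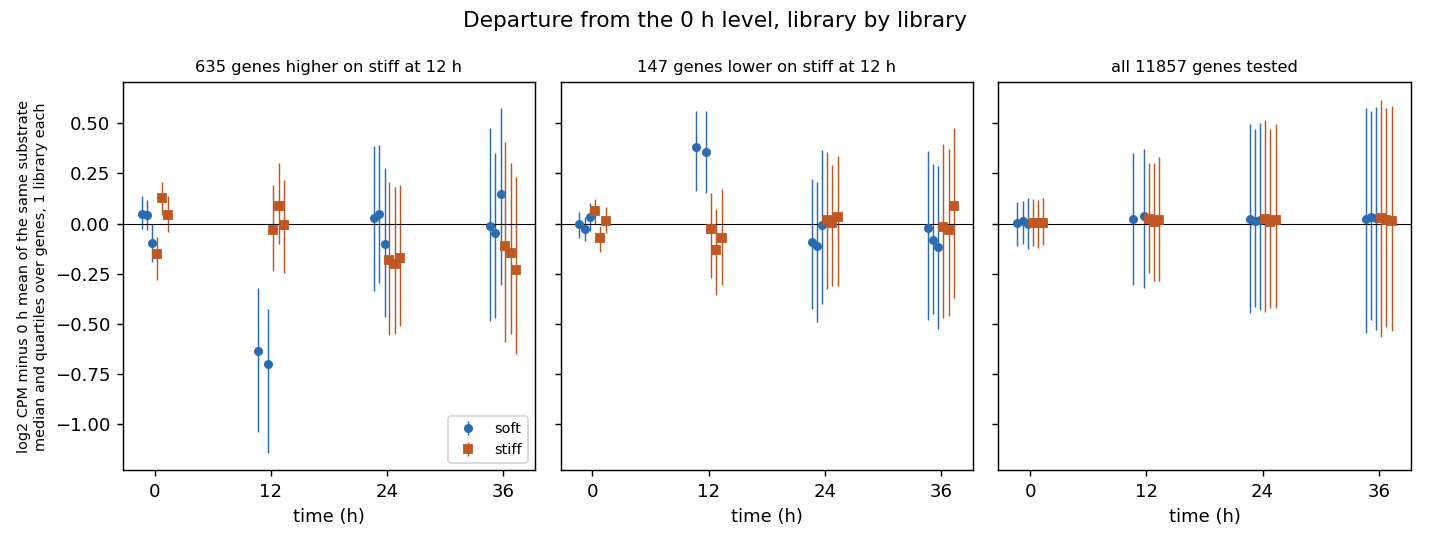
Median (point) and quartiles (bar) over genes of log2 CPM minus the 0 h mean of the same substrate, 1 point per library, against time in h, for the 635 genes higher on stiff, the 147 lower and all tested genes. The soft 12 h libraries lie at -0.64 and -0.70 in the left panel and at 0.38 and 0.35 in the middle one, and the medians of all tested genes stay near 0 in every library.

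Because the called genes were chosen on the 12 h libraries, the departure was read again in 12 h libraries that had no part in the choice. With the 12 h libraries of round 3 left out, 219 genes were called higher on stiff and 19 lower, with the single soft library assumed to vary like the other groups. In round 3, 218 of the 219 were higher on stiff. Soft replicate 3 lay below all 3 soft 0 h libraries in 200 of them (91.3%, against 33.7% of all tested genes) and above them in 13 (5.94%, against 37.3%). Stiff replicate 3 lay below the stiff 0 h libraries in 57 (26.0%, against 33.5%) and above them in 61 (27.9%, against 35.3%). The medians in that round were -0.91 on soft and -0.01 on stiff.

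With round 1 left out in the same way, 403 genes were called higher and 32 lower. In round 1, 398 of the 403 were higher on stiff. Soft replicate 1 lay below all soft 0 h libraries in 349 of them (86.6%, against 32.8% of all tested genes) and above them in 25 (6.20%, against 36.6%). Stiff replicate 1 lay below the stiff 0 h libraries in 114 (28.3%, against 30.8%) and above them in 109 (27.0%, against 34.3%). The medians were -0.61 on soft and -0.03 on stiff. The lower genes held less well: 100% of those chosen without round 3 were lower on stiff in it, against 52.7% of all tested genes. Of those chosen without round 1, 62.5% were, against 52.4%, with a median difference of -0.17. Soft replicate 3 lay above all soft 0 h libraries in 73.7% (37.3% of all tested genes) and below them in 10.5% (33.7%). For soft replicate 1 it was 31.25% above (36.6%) and 31.25% below (32.8%). The median changes on soft were 0.16 and -0.02, so the rise on soft was not seen again in round 1. The 0 h libraries served both readings, so these are not separate at the starting level.

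The 0 h and 24 h libraries, which bracket this time, held no called difference between substrates. edgeR's quasi-likelihood test called 0 genes at 0 h, with 431 at an unadjusted p under 0.05, and 0 at 24 h, with 358. DESeq2 also called 0 at both times, with 367 and 296 at an unadjusted p under 0.05. Between 12 h and 24 h, 486 of the 635 genes were called as risen on soft (19% of all tested genes) with a median of 0.71. On stiff 60 were called as risen (14.5% of all tested genes) and 191 as fallen (16.1%), with a median of -0.16. From 0 h to 24 h the median was -0.02 on soft and -0.18 on stiff. The steps before and after 12 h share the 12 h libraries, so a low value there enters them with opposite signs.

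The changes from 0 h to 24 h were read for the same classes. Of the 425 that fell on soft, 67 were higher at 24 h than at 0 h on soft (25.1% of all tested genes were), 123 lower (24.1%) and 235 not called. On stiff 38 were higher (25.9%) and 186 lower (25.4%). Of the 54 that rose on stiff by 12 h, 45 were called as risen on soft by 24 h and 0 as fallen, with a median of 0.74, and 41 as risen on stiff, with a median of 0.63. Of the 26 that fell on stiff by 12 h, 18 were called as fallen on soft by 24 h and 16 on stiff, with medians of -0.51 and -0.41. The 0 h libraries are shared by these changes and by those that chose the genes, and no difference between the classes was tested.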

How the data were processed

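Per the labels' protocols, total RNA was column-purified with removal of genomic DNA and made into QuantSeq FWD libraries. Per the submitters' processing notes, FastQC, HISAT2 2.1.0, HTSeq and the build rn6 were used. No annotation release, strand setting or trimming is given in the sources used here, and overlapping or near-identical genes may share reads. The values the authors deposited are raw whole-number counts, 1 column per library and 1 line per gene.

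All 23 libraries were fitted together as 8 groups with edgeR 4.0.16 (R 4.3.3), TMM scaling and filterByExpr (minimum count 10, minimum total 15). CPM uses the scaled totals. Log2 levels of single libraries use a prior count of 1. Figures were drawn with matplotlib 3.10.9. Every replicate pair differed by more than sampling noise (chi-square per degree of freedom 2.42 to 9.11 for genes of 20 or more counts), so each library counts once. The test was tried on simulated data with 200 changed genes for each comparison. False calls there made up 5.56% of calls at 12 h and 10.9% for the change of the stiffness effect.

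The rule for printed genes takes the called genes with non-overlapping 12 h ranges and the largest and smallest fold changes, at most 2 in each direction where identifiers have no names. The 39 gene lists and the marker lists could not be used. Comparisons and lists were chosen with earlier results of these data known. Alternatives were DESeq2 1.42.0, RLE factors, no filter, a filter of 5 CPM in at least 2 libraries, the round as a block, a fit of only the groups compared, and each library left out in turn. Unscaled totals, upper-quartile factors, thinning of every library to the smallest total and the split of calls by substrate were added after seeing the data.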

Additional observations from a re-analysis of the deposited data

Results flagged for a closer look

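By a test of the difference itself, 222 genes had another stiffness effect at 12 h than at 0 h (edgeR quasi-likelihood test, Benjamini-Hochberg adjusted p under 0.05). For ENSRNOG00000056337 the effect changed by 4.21 on the log2 scale (SE 0.79, edgeR adjusted p = 0.00141), from 0.64 at 0 h to 4.85 at 12 h.

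For the other 3 printed identifiers the same test gave edgeR adjusted p of 0.102 (ENSRNOG00000051483), 0.0797 (ENSRNOG00000031593) and 0.597 (ENSRNOG00000020355), so a change of their stiffness effect was not shown. Groups of 2 or 3 libraries are too small for a check of single outlying samples.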

How the results depend on the processing

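The 782 calls at 12 h leaned toward stiff under every alternative run, with 70.4% (no filter on low counts) to 94.6% (without stiff replicate 2) of calls higher on stiff. The sign of all 635 higher and 147 lower genes was kept under the RLE, unfiltered, DESeq2, block, leave-one-out, upper-quartile and unscaled fits, and that of 633 and 146 in the thinned fit and in the fit of the groups compared. With at least 5 CPM in 2 libraries 628 and 145 were tested and kept theirs. These genes were chosen on the same libraries, and the 12 h ranges of nearly all did not overlap. A sign could thus hardly change, and its keeping is no test of the calls. With libraries thinned to the smallest total, 475 of the 635 and 93 of the 147 were still called.

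With 1 library left out the total at 12 h ran from 336 to 672, the higher genes from 288 to 597, the lower from 27 to 91, calls from 0 h to 12 h on soft from 2150 to 3303 (the lowest without soft replicate 3, against 3455) and on stiff from 1908 to 2272, and changes of the stiffness effect from 87 to 278. Genes higher on stiff that fell on soft alone ran from 196 to 464 and those that rose on stiff alone from 22 to 54. Genes lower on stiff that rose on soft alone ran from 12 to 81 and those that fell on stiff alone from 7 to 26.

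The 147 lower genes became 279 with no filter and 80 with unscaled totals. The 61 that rose on soft alone became 100 with no filter, 37 with only the groups compared and 31 with unscaled totals, and the 26 that fell on stiff alone 48 with no filter and 15 with unscaled totals. The cause was not tested. With the round number as a block the 147 became 258, the 61 became 102 and the 26 became 49, and no other count moved by over 1.5 times. Whether the round numbers pair the libraries was not tested. Deviations from the group mean correlated across genes at 0.0532 (round 1) and 0.10 (round 3) between soft and stiff at 12 h. The 2 soft 12 h libraries deviate by equal and opposite amounts, which limits this reading. Over the pairs of 0 h and 12 h groups read, correlations ran from -0.037 to 0.136 within a round. Between different rounds they ran from -0.158 to 0.078. Most were above 0 within a round and most below 0 between rounds, so a weak pairing, which the main fit does not use, may be present.

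The calls of the 3 scarce identifiers were lost in 2 of 10 alternatives (ENSRNOG00000051483), 5 of 10 (ENSRNOG00000031593) and 8 of 12 (ENSRNOG00000020355), and their direction was kept in each. Left out of these counts are DESeq2, which gave no adjusted p, and the fits whose filter removed the gene: that of 5 CPM for all 3, and the fit of the groups compared and the thinned fit for the first 2. For the last the replicate block gave an edgeR adjusted p of 0.0529, within 0.0170 to 0.540 over its alternatives. Depth limits the scarce genes most: up to a mean of 7.74 CPM the median standard error of the 12 h log2 difference was 0.55.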
